A study of Mus musculus with 29 samples.

Results

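The 8 genes described here encode the cyclins and kinase inhibitors that act in the G1 phase of the cell cycle: the D-type cyclin genes Ccnd1, Ccnd2 and Ccnd3, the E-type cyclin genes Ccne1 and Ccne2, the inhibitor gene of the CIP/KIP family Cdkn1b, and the inhibitor genes of the INK4 family Cdkn2a and Cdkn2b. They were taken by name from the 24394 genes of 4 tables of RNA-seq read counts, and each was present in every table. D-type cyclins bind the kinases CDK4 and CDK6 and carry growth signals into the phosphorylation of the retinoblastoma protein, which frees E2F transcription factors. E-type cyclins bind CDK2 and drive entry into DNA replication. The INK4 proteins block CDK4 and CDK6, while p27, the product of Cdkn1b, binds mainly complexes of CDK2. Embryonic stem (ES) cells of the mouse have a short G1 phase and keep INK4 genes nearly silent, and cyclin E is held high through much of their cycle.

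The 20 libraries came from mouse ES cells of the 129/Ola strain, untreated and grown on gelatin with serum, and formed 4 experiments with 2 libraries in each group. In the Trim66 experiment, 2 lines labelled as Trim66 knockouts, KO1 and KO2, were set against wild type. In the overexpression experiment, cells overexpressing GFP-TRIM66 were set against cells overexpressing GFP from the empty vector. In the Dax1 experiment, a knockdown by either of 2 hairpins, sh1 and sh2, was set against a control labelled wild type; Dax1 is the nuclear receptor gene listed as Nr0b1. In the last experiment, cells depleted of both Dax1 and Dux, a homeobox gene of the 2-cell embryo, called the double knockdown, were set against their own control, also labelled wild type. The labels do not say whether a line is 1 clone, which part of Trim66 was deleted, what the controls of the knockdowns carry or whether 2 libraries of a group came from separate cultures, so p-values measure the spread between libraries, which may be technical. The title of the series places TRIM66, DAX1 and Dux in 1 axis that holds down the 2-cell-like state. The comparisons below ask how the G1 genes differed in each of these cells.

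Library totals lay between 12483949 and 17365296 counts. Trim66 was 1.54 higher on the log2 scale in KO1 and 1.56 higher in KO2 than in wild type, against the labels, on 33 to 48 counts in these lines and 11 and 15 in wild type. Reads outside a deleted part would not check a deletion, and these are called the libraries labelled knockout, with each direction resting on the label. Trim66 was 6.90 higher with GFP-TRIM66. Nr0b1 was lower by 1.35 with sh1 and by 0.99 with sh2, and its fold change of -0.90 in the double knockdown did not pass the test (edgeR adjusted p = 0.275). Dux had 2 and 0 counts in the double knockdown and 0 in both of its control libraries, so its knockdown was not detectable against that control at this depth. Dux rose with sh1, at 49 and 54 counts (8.64, edgeR adjusted p = 9.65e-09), and with sh2, at 14 and 26 (7.42, 1.03e-05). The control of these hairpins had 0 counts in both libraries. The effects of the double knockdown and of the hairpins on Dux could not be compared (-4.76, SE 11400). In KO2 Dux had 15 and 15 counts (4.54, adjusted p = 0.016) and in KO1 1 and 6 (2.58, 0.164), against 0 and 1 in wild type. Replicate 2 of the control of the double knockdown stood apart from replicate 1: its summed trophectoderm markers were at 2730 CPM (read counts scaled to library size by TMM over all 20 libraries), against 429 CPM in replicate 1 and 3310 and 3180 CPM in the double knockdown. That library also had 87 Trim66 counts, against 4 in replicate 1 and 7 and 16 in the double knockdown. The libraries of GFP-TRIM66, the GFP vector and the control of the double knockdown varied most between replicates. Markers of ES cells were detected in every library, with sums of 4400 to 6730 CPM outside the double knockdown experiment and 2220 to 3380 CPM within it.

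All 8 genes passed the filter on low counts in all 4 tables. A gene is called higher or lower at an edgeR adjusted p under 0.05 over all genes and transposable elements of a comparison. In KO1, 3 of the 8 were called higher and 3 lower, beside 31.2% of the 15086 features tested that were called in either direction. In KO2, 0 were called higher and 2 lower, beside 11.7%. With sh1, 1 was higher and 3 lower, beside 43.4% of 14865 features, and with sh2 0 were higher and 2 lower, beside 25.1%. With GFP-TRIM66 and in the double knockdown 0 of the 8 were called, where 0.0199% and 0.104% of all features were called. At an unadjusted p under 0.05 these 2 comparisons had 2 and 1 of the 8. The share of all features at that cutoff was not counted, so no excess is read from these. Between KO2 and KO1 5 of the 8 differed, beside 23.0% of all features, and between sh2 and sh1 5 of the 8, beside 36.4%. Ccnd2 was called lower in both lines labelled knockout and with both hairpins, Ccnd1 in both lines and Cdkn1b with both hairpins, and Ccne2 was called in none of these comparisons. The median log2 fold change of the 8 was -0.16 in KO1, -0.17 in KO2, 0.10 with GFP-TRIM66, -0.02 with sh1, -0.10 with sh2 and -0.08 in the double knockdown, where the medians of all features lay between -0.02 and 0.02.

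**Figure D1:**
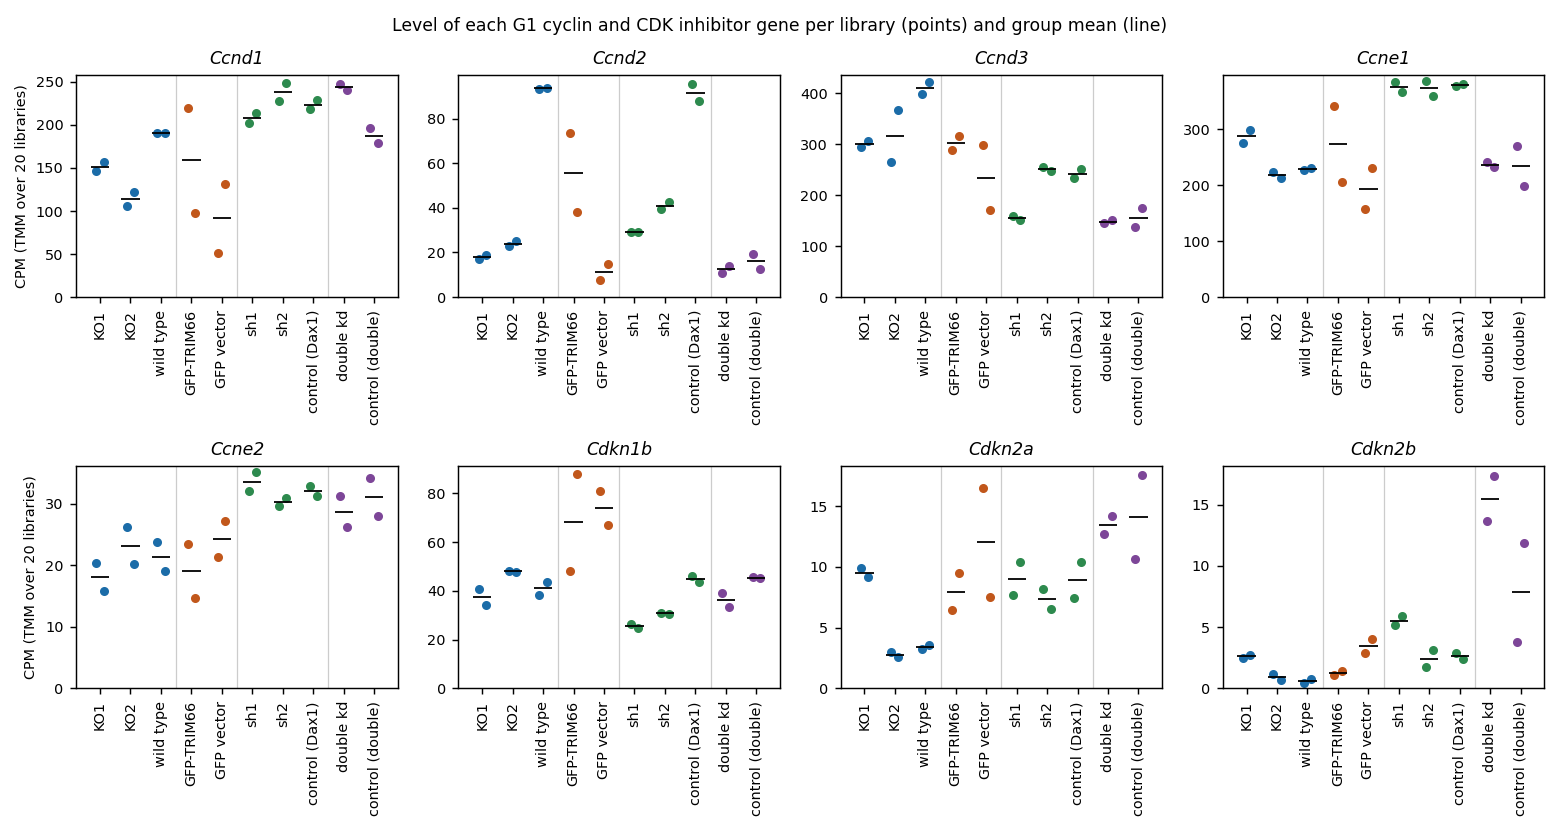
Level of each of the 8 genes in CPM (vertical axis, linear, from 0) in each of the 20 libraries (points), with the mean of the 2 libraries of a group as a line and colours for the 4 experiments. Ccnd2 is at 17.0 to 25.1 CPM in the libraries labelled knockout and 29.0 to 42.5 CPM with the Dax1 hairpins, against 87.8 to 95.4 CPM in wild type and in the control of the Dax1 knockdown.

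Of the D-type cyclin genes, Ccnd2, which encodes cyclin D2, had the largest falls. It had 17.0 and 18.8 CPM in KO1 and 22.8 and 25.1 CPM in KO2, against 93.3 and 93.7 CPM in wild type. No library of either line came near the wild-type level. The log2 fold change was -2.36 in KO1 (SE 0.115, edgeR adjusted p = 2.76e-06), a level 5.13-fold lower, and -1.94 in KO2 (SE 0.112, adjusted p = 1.19e-05), a level 3.85-fold lower. These values come from the fit of the experiment alone, as do all fold changes below, while CPM levels are scaled over all 20 libraries. In a direct test KO2 was above KO1 by 0.42 (SE 0.118, adjusted p = 0.0306). That call did not hold without KO1 replicate 1 (0.35, adjusted p = 0.238), KO1 replicate 2 (0.50, 0.114), wild type replicate 1 (0.42, 0.0626) or wild type replicate 2 (0.43, 0.054), with DESeq2 (0.0501) or in a fit of the 2 lines alone (0.072).

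Ccnd2 was also lower with both Dax1 hairpins. It had 29.0 and 29.2 CPM with sh1 and 39.3 and 42.5 CPM with sh2, against 95.4 and 87.8 CPM in the control. The 3 groups did not overlap, and sh1 lay below sh2. The log2 fold change was -1.61 with sh1 (SE 0.0752, adjusted p = 7.35e-16), 3.05-fold lower, and -1.15 with sh2 (SE 0.0729, adjusted p = 2.05e-12), 2.22-fold lower, and sh2 was above sh1 by 0.46 (SE 0.0832, adjusted p = 8e-05). Of 8 ES cell markers, 1 was higher and 7 lower with sh1 and 4 were higher and 1 lower with sh2. In the lines labelled knockout 1 was higher and 3 lower in KO1 and 1 was higher and 0 lower in KO2. Of all features, 43.4% were called with sh1, 25.1% with sh2, 31.2% in KO1 and 11.7% in KO2. The part of these markers in the level of Ccnd2 was not tested. The fall of Nr0b1 was likewise the larger with sh1, at 63.1 and 58.7 CPM with sh1 and 80.1 and 79.7 CPM with sh2, against 155 and 164 CPM in the control. In 1 fit of all 20 libraries, where the more variable experiments enter the estimate of the spread, the call held with sh1 (adjusted p = 0.00171) but not with sh2 (0.0512), and the difference between the hairpins was not called (0.48, adjusted p = 0.402).

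With GFP-TRIM66, Ccnd2 had 73.7 and 38.0 CPM, against 7.69 and 15.0 CPM with the GFP vector. Both GFP-TRIM66 libraries lay above both vector libraries, and within each group the replicates differed widely. The log2 fold change was 2.27 (SE 0.444, 95% interval 1.22 to 3.31), with an adjusted p of 0.163, and so was not called. It was called by DESeq2 (2.32, adjusted p = 5.71e-05), in 1 fit of all 20 libraries (2.28, 1.37e-04), and without GFP vector replicate 2 (2.87, 0.013), GFP-TRIM66 replicate 1 (1.72, 0.0357) or GFP-TRIM66 replicate 2 (2.69, 1.48e-07), which leave 1 sample in a group that is assumed to vary like the other. In the double knockdown Ccnd2 had 11.0 and 13.9 CPM, against 19.5 and 12.5 CPM in its control, at -0.38 on the log2 scale (SE 0.281, adjusted p = 0.614). These groups overlapped. Without control replicate 2, the library that stood apart, the value was -0.66, and without control replicate 1 it was -0.01, each with 1 control library left. The difference between the effect of the double knockdown and the mean effect of the Dax1 hairpins on Ccnd2 was 1.04 (SE 0.384, 95% interval 0.23 to 1.85), which did not pass the test (adjusted p = 0.389). Over all features 0.385% passed it, and 0 of the 8 genes. At an unadjusted p under 0.05 there was 1 of the 8, without a count of all features at that cutoff.

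The level of Ccnd2 in control cells was not the same in the 4 experiments. The control groups were at 93.5 ± 0.29 CPM in wild type, 11.3 ± 5.16 CPM with the GFP vector, 91.6 ± 5.4 CPM in the control of the Dax1 knockdown and 16 ± 4.98 CPM in the control of the double knockdown (SD, n = 2 each). The highest of these means was 8.27-fold above the lowest, which is also the span over all 10 groups. The GFP vector and the control of the double knockdown lay under KO2 and overlapped KO1 or lay below it. In the order of all groups, wild type and the control of the Dax1 knockdown overlapped at the top, and KO1, the control of the double knockdown, the double knockdown and the GFP vector overlapped in sequence at the bottom. Levels set across experiments were scaled together and not tested, and the experiment and the culture cannot be told apart.

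Ccnd1, which encodes cyclin D1, was lower in both lines labelled knockout, and by more in KO2. It had 146 and 156 CPM in KO1 and 105 and 122 CPM in KO2, against 191 and 191 CPM in wild type. The 3 groups did not overlap. Ccnd1 changed by -0.31 in KO1 (SE 0.101, adjusted p = 0.0429) and -0.73 in KO2 (SE 0.102, adjusted p = 0.00168), and KO2 was below KO1 by a log2 value of -0.42 (SE 0.102, adjusted p = 0.0173). The call in KO1 was lost without any 1 of the KO1 or wild-type libraries (adjusted p of 0.132 to 0.271, with fold changes of -0.37 to -0.27). The difference between the lines was lost without KO1 replicate 1 (-0.46, adjusted p = 0.097) or KO1 replicate 2 (-0.36, adjusted p = 0.174). In 1 fit of all 20 libraries KO2 also lost its call (adjusted p = 0.242). Oraov1 overlaps Ccnd1 and had only 84 to 227 counts a library.

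Ccnd1 was called with neither Dax1 hairpin. Its log2 fold change was -0.06 with sh1 (95% interval -0.16 to 0.05) and 0.10 with sh2 (0.00 to 0.21), and without sh2 replicate 1 the value with sh2 was 0.17 and called (adjusted p = 0.0482). Levels were 203 and 214 CPM with sh1 and 228 and 249 CPM with sh2, against 218 and 229 CPM in the control. In the direct test sh2 was above sh1 by 0.16 (SE 0.0521, adjusted p = 0.0161), a call lost without sh1 replicate 1 (0.12, adjusted p = 0.142) or sh2 replicate 2 (0.10, adjusted p = 0.241) and with DESeq2 (0.0515). With GFP-TRIM66 the levels were 220 and 97.7 CPM, against 51.7 and 131 CPM with the GFP vector, and the groups overlapped (0.77, SE 0.506, adjusted p = 0.466). It was called without GFP vector replicate 2 (1.62, adjusted p = 0.046) or GFP-TRIM66 replicate 2 (1.25, adjusted p = 0.033). In the double knockdown both libraries, at 248 and 240 CPM, lay above those of the control, at 196 and 179 CPM, at 0.37 on the log2 scale (SE 0.131, adjusted p = 0.405). Without control replicate 1 this was 0.44, and without replicate 2 it was 0.30, each with 1 control library left.

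Ccnd3, which encodes cyclin D3, followed the hairpins differently. It had 159 and 152 CPM with sh1 and 255 and 248 CPM with sh2, against 233 and 251 CPM in the control. Both sh1 libraries stood below the control, and sh2 overlapped it. Ccnd3 was at -0.60 with sh1 (SE 0.0505, adjusted p = 1.86e-10) and 0.06 with sh2 (SE 0.0493, 95% interval -0.04 to 0.17, adjusted p = 0.37), and the direct difference was 0.66 in favour of sh2 (SE 0.0506, adjusted p = 3.57e-11). In 1 fit of all 20 libraries neither the fall with sh1 (adjusted p = 0.0602) nor the difference (0.0633) was called. In the libraries labelled knockout, Ccnd3 had 295 and 306 CPM in KO1 and 264 and 368 CPM in KO2, against 399 and 423 CPM in wild type. All 4 lay below wild type. The fall of -0.43 in KO1 was called (SE 0.141, adjusted p = 0.0439) and the value of -0.36 in KO2 was not (SE 0.140, adjusted p = 0.13). The call in KO1 was lost without any 1 of the KO1 or wild-type libraries (adjusted p of 0.11 to 0.209), and that in KO2 was made without KO2 replicate 2 (-0.63, adjusted p = 2.2e-04) and with no filter on low counts (0.0077). Between KO2 and KO1 the value was 0.07 (95% interval -0.25 to 0.38, adjusted p = 0.767), but without KO2 replicate 1 it was 0.29 and called (adjusted p = 0.0242), and without KO2 replicate 2 it was -0.18 (adjusted p = 0.135). Neither GFP-TRIM66 (0.34, adjusted p = 0.571) nor the double knockdown (-0.09, adjusted p = 0.845) gave a call. The rows of Ccnd3 and of Bysl, a gene that overlaps it, can share reads because strand is not given. Bysl stood at -0.25 in KO1 and 0.10 with sh1, neither of them called, and at 0.18 with sh2 (adjusted p = 0.00878).

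**Figure D2:**
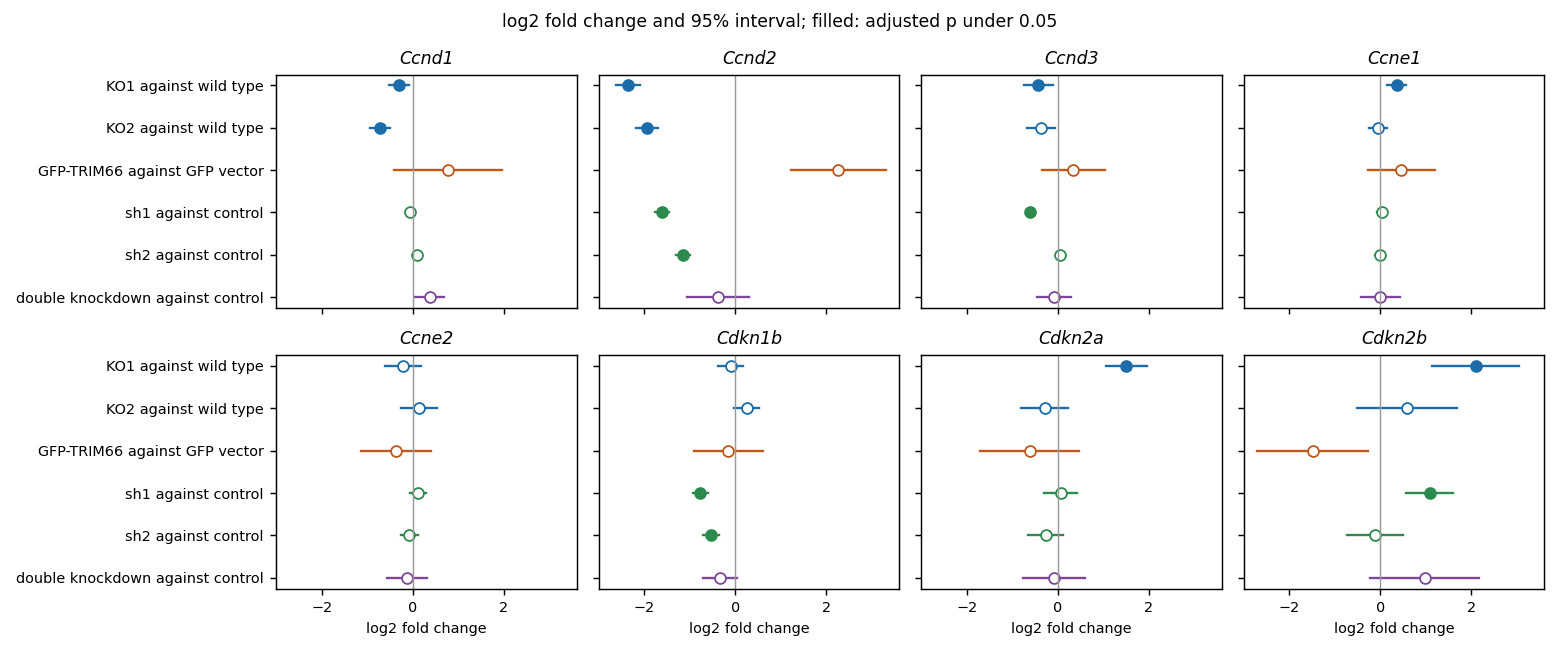
Log2 fold change (horizontal axis) with its 95% interval for each of the 8 genes in the 6 comparisons with a control, filled where the adjusted p is under 0.05. Ccnd2 lies at -2.36 and -1.94 in the lines labelled knockout and at -1.61 and -1.15 with the Dax1 hairpins, and its interval with GFP-TRIM66 runs from 1.22 to 3.31 without a call.

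The E-type cyclin genes changed little. Ccne1, which encodes cyclin E1, had 277 and 298 CPM in KO1 and 224 and 212 CPM in KO2, against 227 and 231 CPM in wild type. KO1 stood above wild type, by 0.36 (SE 0.0903, adjusted p = 0.0144), while KO2 stood at -0.05 (SE 0.0904, adjusted p = 0.768), and KO2 was below KO1 by a log2 value of -0.41 (SE 0.0903, adjusted p = 0.0116). The rise in KO1 was lost without any 1 of the KO1 or wild-type libraries (adjusted p of 0.0765 to 0.2), and the difference between lines without KO1 replicate 1 (-0.45, adjusted p = 0.0781) or replicate 2 (-0.34, adjusted p = 0.166). With the hairpins Ccne1 was at 0.03 with sh1 (95% interval -0.07 to 0.12) and -0.01 with sh2 (-0.11 to 0.08), on levels of 385 and 366 CPM with sh1, 387 and 360 CPM with sh2 and 377 and 382 CPM in the control. Both intervals lay below the value of KO1. With GFP-TRIM66 Ccne1 was at 0.46 (SE 0.314, adjusted p = 0.476) and in the double knockdown at 0.00 (SE 0.178, adjusted p = 0.995), both with overlapping groups.

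Ccne2, which encodes cyclin E2, was called in none of the 8 comparisons with a control or between lines or hairpins, all by edgeR. Its libraries lay between 14.7 and 35.2 CPM, and its group means spanned 1.86-fold, the smallest span of the 8 genes. The log2 fold change was -0.21 in KO1 (95% interval -0.62 to 0.19), 0.13 in KO2 (-0.27 to 0.53), 0.11 with sh1 (-0.07 to 0.29) and -0.08 with sh2 (-0.26 to 0.11). At an unadjusted p under 0.05 there was 1 comparison, sh2 against sh1, at -0.18 (adjusted p = 0.111), and DESeq2 called none. Without KO2 replicate 2 the difference between KO2 and KO1 was called (0.54, adjusted p = 0.0247, against 0.35 and 0.198 with all libraries). Ccne2 overlaps Ints8, which encodes an Integrator subunit, and reads of both cannot be told apart without strand. Ints8 fell by 0.17 with sh1 and by 0.24 with sh2 on the log2 scale.

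Of the inhibitor genes, Cdkn1b was lower with both Dax1 hairpins. It had 26.3 and 24.8 CPM with sh1 and 30.8 and 30.7 CPM with sh2, against 46.0 and 43.5 CPM in the control. The 3 groups did not overlap, in the order sh1, sh2 and control. Cdkn1b changed by -0.77 with sh1 (SE 0.0847, adjusted p = 2.96e-08), 1.70-fold lower, and -0.53 with sh2 (SE 0.0839, adjusted p = 2.26e-05), 1.45-fold lower. The difference of 0.23 between sh2 and sh1 (SE 0.0899, adjusted p = 0.0423) was lost without any 1 of the sh1 and sh2 libraries (adjusted p of 0.0639 to 0.207), with DESeq2 (0.199) and in a fit of both hairpins alone (0.0657). In 1 fit of all 20 libraries the fall with sh2 was not called (adjusted p = 0.296). In the libraries labelled knockout Cdkn1b had 40.7 and 34.2 CPM in KO1 and 48.2 and 47.9 CPM in KO2, against 38.4 and 43.6 CPM in wild type. KO1 overlapped wild type (-0.10, adjusted p = 0.565), and KO2 lay above it by less than the test needs (0.25, 95% interval -0.03 to 0.52, adjusted p = 0.238). Between KO2 and KO1 the value was 0.35 (adjusted p = 0.0697), called without KO2 replicate 2 (0.37, adjusted p = 0.0412) and with no filter on low counts (0.0431). With GFP-TRIM66 it had 48.0 and 88.1 CPM, against 80.9 and 66.8 CPM with the GFP vector, and in the double knockdown 38.9 and 33.2 CPM, against 45.8 and 45.1 CPM in the control. The double knockdown lay below its control at -0.34 on the log2 scale (SE 0.155, adjusted p = 0.477). The value was -0.36 without control replicate 2, which leaves 1 control library.

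Cdkn2a and Cdkn2b lie side by side on chromosome 4, at 89274473 to 89294619 and 89306289 to 89311032 of GRCm38.p6, both on the minus strand, with 11.7 kb between them. Cdkn2a makes 2 proteins from separate first exons: INK4a, a CDK4 and CDK6 inhibitor, and ARF, which stabilises p53 through MDM2. Both share the later exons and 1 row of the tables, so they cannot be told apart here. Cdkn2b encodes INK4b, another CDK4 and CDK6 inhibitor known as a target of TGF-beta signalling. The stretches around their starts are shown because these were the members that rose most in KO1 and that differed most between lines. The stretch of Cdkn1b is shown beside them as the inhibitor gene that fell with the hairpins. Each runs from 250 bases before to 50 bases after a start, 5′ to 3′ on the strand of the gene, from RefSeq on GRCm38.p6. Capitals mark the motifs searched on both strands: TTTCCCGC and TTTGGCGC of E2F, GGGCGG of SP1, AAGGTCA of nuclear receptors, GTAAACA of FOXO factors and the CCAAT box, with adjoining or overlapping matches run together.
Cdkn2a, upstream start (ARF), chr4:89294570-89294869, minus strand: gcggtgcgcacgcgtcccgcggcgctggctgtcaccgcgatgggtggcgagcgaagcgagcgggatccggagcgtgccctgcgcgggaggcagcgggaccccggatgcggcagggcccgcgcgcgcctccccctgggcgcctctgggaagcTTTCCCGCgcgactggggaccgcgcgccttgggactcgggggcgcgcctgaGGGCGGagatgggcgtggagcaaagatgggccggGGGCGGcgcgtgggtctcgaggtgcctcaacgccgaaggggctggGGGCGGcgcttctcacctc
Cdkn2a, downstream start (INK4a), chr4:89282143-89282442, minus strand: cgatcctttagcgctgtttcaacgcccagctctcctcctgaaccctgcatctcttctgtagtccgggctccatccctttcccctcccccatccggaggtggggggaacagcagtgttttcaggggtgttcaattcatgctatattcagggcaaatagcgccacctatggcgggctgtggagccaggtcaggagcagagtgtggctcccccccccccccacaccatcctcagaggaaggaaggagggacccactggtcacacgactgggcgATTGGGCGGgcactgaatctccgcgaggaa
Cdkn2b, chr4:89310983-89311282, minus strand: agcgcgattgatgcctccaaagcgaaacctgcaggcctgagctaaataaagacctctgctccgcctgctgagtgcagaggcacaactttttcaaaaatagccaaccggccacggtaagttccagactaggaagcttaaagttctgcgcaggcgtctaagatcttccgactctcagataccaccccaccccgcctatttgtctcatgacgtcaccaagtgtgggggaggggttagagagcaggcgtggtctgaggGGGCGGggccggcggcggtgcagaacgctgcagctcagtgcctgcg
Cdkn1b, chr6:134920151-134920450, plus strand: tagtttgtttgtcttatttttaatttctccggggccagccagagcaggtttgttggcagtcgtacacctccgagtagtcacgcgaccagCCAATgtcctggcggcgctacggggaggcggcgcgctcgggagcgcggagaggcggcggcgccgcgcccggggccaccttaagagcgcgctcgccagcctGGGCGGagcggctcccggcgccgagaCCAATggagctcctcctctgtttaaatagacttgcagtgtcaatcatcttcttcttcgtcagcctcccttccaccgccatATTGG
The upstream start of Cdkn2a held 1 TTTCCCGC, which 1.07% of 32851 promoter stretches of the same length held, and 3 GGGCGG, which 35.7% held at least once. The downstream start of Cdkn2a held 1 GGGCGG that overlaps a CCAAT on the other strand, and Cdkn2b held 1 GGGCGG. Cdkn1b held 3 CCAAT, which 37.4% of promoters held, and 1 GGGCGG. The nuclear receptor letters AAGGTCA, in 4.72% of promoters, TTTGGCGC, in 0.514%, and GTAAACA, in 3.65%, were in none of these 4 stretches. Of the other 3 stretches of members, the upstream one of Ccnd3 held 1 AAGGTCA, 97 bases before the start, and a single GTAAACA. G and C made up 77.0% of the upstream and 60.3% of the downstream stretch of Cdkn2a, 57.7% of that of Cdkn2b and 62.0% of that of Cdkn1b. A match describes the letters and is not a binding site, and no match says only that these letters are not in these windows.

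Both INK4 genes rose in KO1. Cdkn2a had 9.89 and 9.19 CPM in KO1 and 3.0 and 2.57 CPM in KO2, against 3.23 and 3.58 CPM in wild type. The KO1 libraries stood apart from all others of the experiment, and KO2 lay just under wild type. Cdkn2a was at 1.51 in KO1 (SE 0.205, adjusted p = 5.49e-04), 2.84-fold higher, and -0.28 in KO2 (SE 0.231, adjusted p = 0.475). The difference of -1.79 between KO2 and KO1 was called (SE 0.210, adjusted p = 5.08e-04) and stayed called under each of the 13 alternatives run for it. Cdkn2b had 34 and 41 counts in KO1 (2.51 and 2.75 CPM) and 16 and 12 counts in KO2 (1.20 and 0.686 CPM), against 6 and 12 counts in wild type (0.431 and 0.795 CPM). The gene was low in all of these cells, and KO1 again stood apart. Its log2 fold change was 2.1 in KO1 (SE 0.429, adjusted p = 0.00504), 4.28-fold higher, and 0.58 in KO2 (SE 0.494, 95% interval -0.52 to 1.68, adjusted p = 0.492). The call in KO1 was lost without wild type replicate 1 (1.73, adjusted p = 0.0549). The difference between lines, -1.52 (SE 0.399, adjusted p = 0.023), was lost without KO1 replicate 1 (-1.57, adjusted p = 0.116), KO1 replicate 2 (-1.44, 0.158) or KO2 replicate 2 (-1.12, 0.0763), and with DESeq2 (0.0896).

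With the Dax1 hairpins the pair parted. Cdkn2b had 5.13 and 5.89 CPM with sh1 and 1.71 and 3.16 CPM with sh2, against 2.91 and 2.41 CPM in the control. The sh1 libraries were the highest and sh2 overlapped the control. Cdkn2b was at 1.09 with sh1 (SE 0.253, adjusted p = 9.83e-04), 2.12-fold higher, and -0.12 with sh2 (SE 0.298, adjusted p = 0.817), and sh2 was below sh1 by a log2 value of -1.21 (SE 0.262, adjusted p = 6.08e-04). In 1 fit of all 20 libraries neither the rise (adjusted p = 0.159) nor the difference (0.163) was called. Cdkn2a had 7.67 and 10.4 CPM with sh1 and 8.15 and 6.56 CPM with sh2, against 7.47 and 10.4 CPM in the control. All 3 groups overlapped, with fold changes of 0.07 with sh1 (95% interval -0.30 to 0.43, adjusted p = 0.79) and -0.26 with sh2 (-0.65 to 0.12, adjusted p = 0.337). Between sh2 and sh1 the value was -0.33 (adjusted p = 0.174), and -0.53 without sh1 replicate 1 (adjusted p = 0.0485). The sign with sh1 turned without sh1 replicate 2 or without control replicate 1.

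With GFP-TRIM66 Cdkn2b had 1.12 and 1.42 CPM, against 2.91 and 4.07 CPM with the GFP vector, at -1.48 on the log2 scale (SE 0.518, 95% interval -2.70 to -0.26, adjusted p = 0.238). The groups did not overlap, and the value was called in 1 fit of all 20 libraries (adjusted p = 0.0356) but not by DESeq2 (0.249). Cdkn2a had 6.45 and 9.50 CPM, against 16.5 and 7.53 CPM with the vector, and these overlapped (-0.62, adjusted p = 0.513). In the double knockdown Cdkn2b had 13.7 and 17.3 CPM, against 3.79 and 11.9 CPM in the control, with the control library that stood apart the higher of its group. The log2 fold change was 0.98 (SE 0.496, 95% interval -0.23 to 2.18, adjusted p = 0.513) with both control libraries, when 15 features and 0 of the 8 genes were called. It was 2.02 without control replicate 2 and 0.38 without control replicate 1. Each of these fits leaves 1 control library, so neither measures the spread of the control. The difference between the double knockdown effect and the Dax1 knockdown effect was 0.52 for Cdkn2b (SE 0.566, adjusted p = 0.867) and 0.06 for Cdkn2a (SE 0.437, adjusted p = 0.994).

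Markers of other cell types moved with Cdkn2b in some experiments and not in all. The summed level of 7 trophectoderm markers, among them the keratin genes Krt8 and Krt18, was 179 to 184 CPM in KO1 and 70.6 to 80.7 CPM in KO2, against 51.6 to 51.7 CPM in wild type. It was 478 to 479 CPM with sh1 and 109 to 111 CPM with sh2, against 231 to 245 CPM in the control. KO1 and sh1, where Cdkn2b rose, were thus the groups of their experiments with the highest sums, and sh2 lay below its control on this list without a change of Cdkn2b. With GFP-TRIM66 the sum was 73.5 and 105 CPM, against 93.3 and 68.8 CPM with the GFP vector, overlapping groups where Cdkn2b did not overlap. The control of the Dax1 knockdown also had a higher sum than KO1 and sh2 at a like level of Cdkn2b. Of the 4 markers of the list that were tested in the Trim66 experiment, 3 were higher and 0 lower in KO1 and 2 higher and 0 lower in KO2, and of the 6 tested in the Dax1 experiment 4 were higher and 1 lower with sh1 and 0 higher and 3 lower with sh2. The sum of 10 fibroblast markers was 72.0 to 72.6 CPM in KO1 and 33.8 to 34.9 CPM in KO2, against 39.7 to 41.2 CPM in wild type, and 255 to 258 CPM with sh1 and 49.6 to 54.8 CPM with sh2, against 129 to 133 CPM in the control. In the double knockdown it was 1130 to 1160 CPM, against 175 and 889 CPM in the control. Of the fibroblast markers, 4 were higher and 1 lower of 6 tested in KO1 and 2 higher and 1 lower in KO2, and 5 were higher and 0 lower of 7 tested with sh1 and 1 higher and 5 lower with sh2. Lum, a fibroblast matrix gene, had 0 counts in all groups but sh1 and the double knockdown. Other fibroblast markers at 0 counts were Col3a1, Dcn and Postn in KO2, Acta2, Dcn and Postn in wild type, and Postn with sh2. With GFP-TRIM66 Postn, and with the GFP vector Dcn and Postn, were also at 0. Elf5, a trophectoderm factor, had 0 counts with sh1, GFP-TRIM66 and the GFP vector. The sum of 10 primitive endoderm markers was 453 CPM in both KO1 libraries and 436 to 438 CPM in KO2, against 543 to 558 CPM in wild type, and 548 to 554 CPM with sh1 and 497 to 506 CPM with sh2, against 376 to 377 CPM in the control; 1 was higher and 7 lower of 9 tested in KO1, 0 higher and 4 lower in KO2, 4 higher and 2 lower of 10 with sh1, and 6 higher and 0 lower with sh2. Of the germ layer markers, 2 were higher and 1 lower of 5 tested in KO1, 0 higher and 1 lower in KO2, 4 higher and 2 lower of 7 with sh1, and 3 higher and 1 lower with sh2. Beside these counts of markers, 31.2% of all features were called in KO1, 11.7% in KO2, 43.4% with sh1 and 25.1% with sh2. The part of other cell types in the level of Cdkn2b was not tested, and in such bulk libraries more cells of a type and more RNA per cell cannot be told apart.

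**Figure D3:**
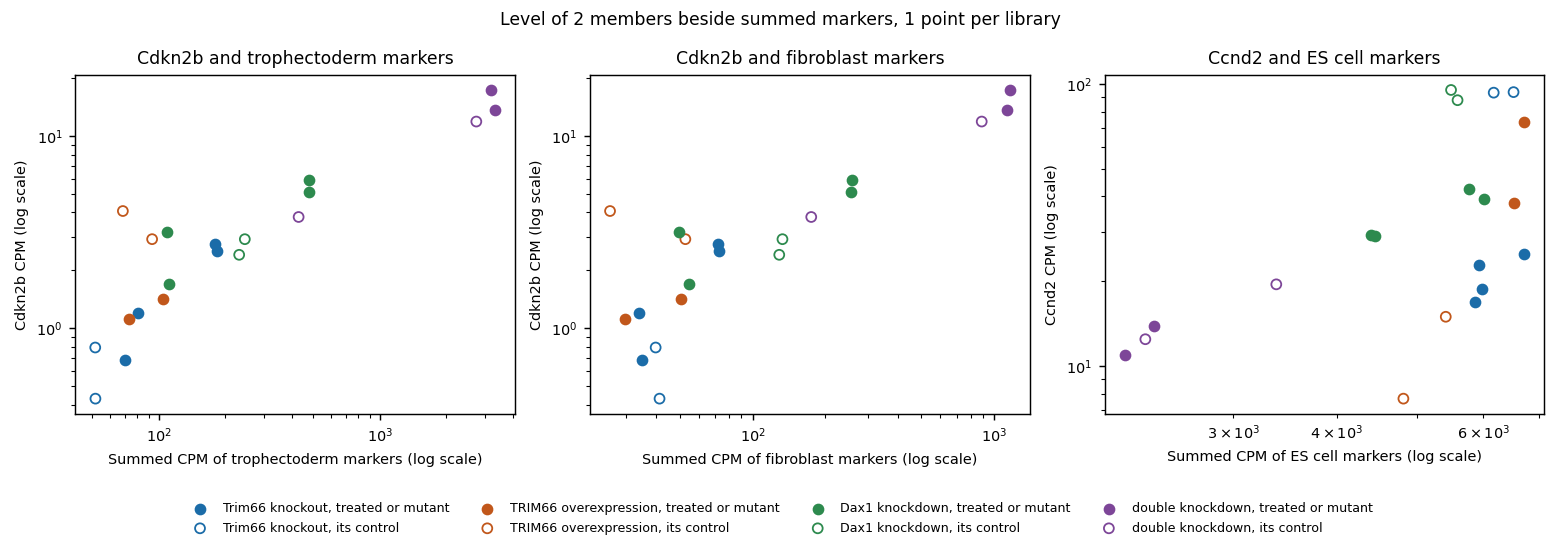
Level of Cdkn2b beside the summed trophectoderm and fibroblast markers and of Ccnd2 beside the summed ES cell markers, all in CPM on log axes, with 1 point for each of the 20 libraries, filled for treated or mutant cells and open for their controls. Cdkn2b is highest, at 11.9 to 17.3 CPM, in the 3 libraries of the double knockdown experiment with trophectoderm sums of 2730 to 3310 CPM, and the GFP vector libraries, at 2.91 and 4.07 CPM of Cdkn2b, have sums of 93.3 and 68.8 CPM.

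The span between the highest and lowest of the 10 group means was 25.3-fold for Cdkn2b and 5.07-fold for Cdkn2a, and 2.88-fold for Cdkn1b, 2.78-fold for Ccnd3, 2.67-fold for Ccnd1 and 1.96-fold for Ccne1. Among the 4 control groups alone it was 12.8-fold for Cdkn2b, 4.13-fold for Cdkn2a, 1.80-fold for Cdkn1b, 2.63-fold for Ccnd3, 2.45-fold for Ccnd1 and 1.96-fold for Ccne1. Much of the range of most members thus lay between experiments. Cdkn2b was highest in the double knockdown, at 15.5 ± 2.58 CPM, and lowest in wild type, at 0.613 ± 0.257 CPM (SD, n = 2 each). Between these, the GFP vector averaged 3.49 CPM, with its lower library at 2.906 CPM. The higher library of the control of the Dax1 knockdown lay just under that, at 2.905 CPM. The control of the Dax1 knockdown, KO1 and sh2 overlapped in sequence, with means from 2.66 to 2.44 CPM. Cdkn1b was highest with the GFP vector, at 73.8 ± 9.94 CPM, and lowest with sh1, at 25.6 ± 1.03 CPM.

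Other genes that act with these cyclins and inhibitors were counted in 3 lists. Over all features, 17.4% were called higher and 13.8% lower in KO1, 6.45% higher and 5.29% lower in KO2, 22.3% higher and 21.2% lower with sh1, 12.5% higher and 12.5% lower with sh2, and 18.2% higher and 18.2% lower with sh2 than with sh1. Of 13 kinases and other G1 regulators, 4 were higher and 3 lower in KO1, 0 higher and 1 lower in KO2, 4 higher and 3 lower of 12 tested with sh1, and 2 higher and 2 lower of 12 with sh2. Cdk6, which encodes a partner kinase of the D-type cyclins, fell in all 4 comparisons. It averaged 8.51 ± 1.12 CPM in KO1 and 9.71 ± 0.912 CPM in KO2, against 28.7 ± 1.52 CPM in wild type, and 15.2 ± 1.87 CPM with sh1 and 15.0 ± 0.0248 CPM with sh2, against 27.9 ± 2.14 CPM in the control (SD, n = 2 each). The log2 fold changes were -1.73 in KO1 (SE 0.158, adjusted p = 6.44e-05), -1.54 in KO2 (SE 0.154, adjusted p = 2.95e-04), -0.83 with sh1 (SE 0.110, adjusted p = 6.4e-07) and -0.88 with sh2 (SE 0.113, adjusted p = 1.09e-06). With GFP-TRIM66 it was at 1.40 (SE 0.294, adjusted p = 0.163), at 30.3 ± 0.568 CPM against 11.2 ± 2.51 CPM with the GFP vector. Cdkn1c, which encodes p57, the imprinted relative of p27, rose by 0.61 in KO1 (adjusted p = 0.00477), by 1.38 with sh1 (adjusted p = 2.38e-15) and by 0.55 with sh2 (adjusted p = 1.7e-06), and was at -0.28 in KO2 (adjusted p = 0.179). It was below KO1 in KO2 by a log2 value of -0.89 (adjusted p = 0.00124), and below sh1 in sh2 by -0.84 (adjusted p = 6.52e-11). Cks1b, which encodes a small subunit that binds cyclin-dependent kinases, rose by 0.45 with sh1 and by 0.29 with sh2.

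Of 13 pocket proteins and E2F factors, 1 was higher and 3 lower in KO1, 0 higher and 3 lower in KO2, 2 higher and 6 lower with sh1, and 3 higher and 4 lower with sh2. E2f2, an activator of S phase genes, fell by 0.87 in KO1 (adjusted p = 0.00571), by 0.68 in KO2 (adjusted p = 0.0379) and by 0.42 with sh1 (adjusted p = 4.68e-04), but rose by 0.24 with sh2 (adjusted p = 0.0391), and E2f1 fell by 0.63 in KO2 (adjusted p = 0.00396) and by 0.38 with sh1 (adjusted p = 5.52e-05). Rb1, the retinoblastoma gene, rose by 1.0 in KO1 (adjusted p = 0.0155), and Rbl2, which encodes its relative p130, rose by 0.74 with sh2 (adjusted p = 0.00379). Of 23 E2F target genes of S phase, 0 were higher and 6 lower in KO1, 0 higher and 4 lower in KO2, 1 higher and 18 lower with sh1, and 2 higher and 9 lower with sh2. Between hairpins 11 were higher and 0 lower with sh2. The median of these 23 was -0.12 in KO1, -0.21 in KO2, -0.19 with sh1 and -0.10 with sh2, where the median of all features lay at 0.01 or 0.02. None of the 3 lists had a member called with GFP-TRIM66 or in the double knockdown by edgeR. At an unadjusted p under 0.05 there were 2, 4 and 4 with GFP-TRIM66 and 1, 1 and 0 in the double knockdown. These counts take the kinases first, then the pocket proteins and E2F factors, then the targets. All features were not counted at that cutoff.

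Mcm3 and Mcm6, subunits of the helicase that opens DNA for replication, led the targets. Mcm3 fell by 0.63 in KO1, 0.71 in KO2, 0.61 with sh1 and 0.32 with sh2, and Mcm6 by 0.61, 0.84, 0.74 and 0.40 in the same order, with adjusted p of at most 8.24e-04. Both lie on chromosome 1, where the median log2 fold change of genes above a log2 CPM of 3 was -0.62 in KO1, -0.49 in KO2, -0.34 with sh1 and -0.18 with sh2. The 8 cyclin and inhibitor genes lie on chromosomes 4, 6, 7 and 17, whose medians lay between -0.05 and 0.06 in these 4 comparisons. Mcm4 fell by 0.39 in KO1 and Mcm5 by 0.41 with sh1, and Gins2, of the same helicase, fell by 0.57 in KO2.

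**Figure D4:**
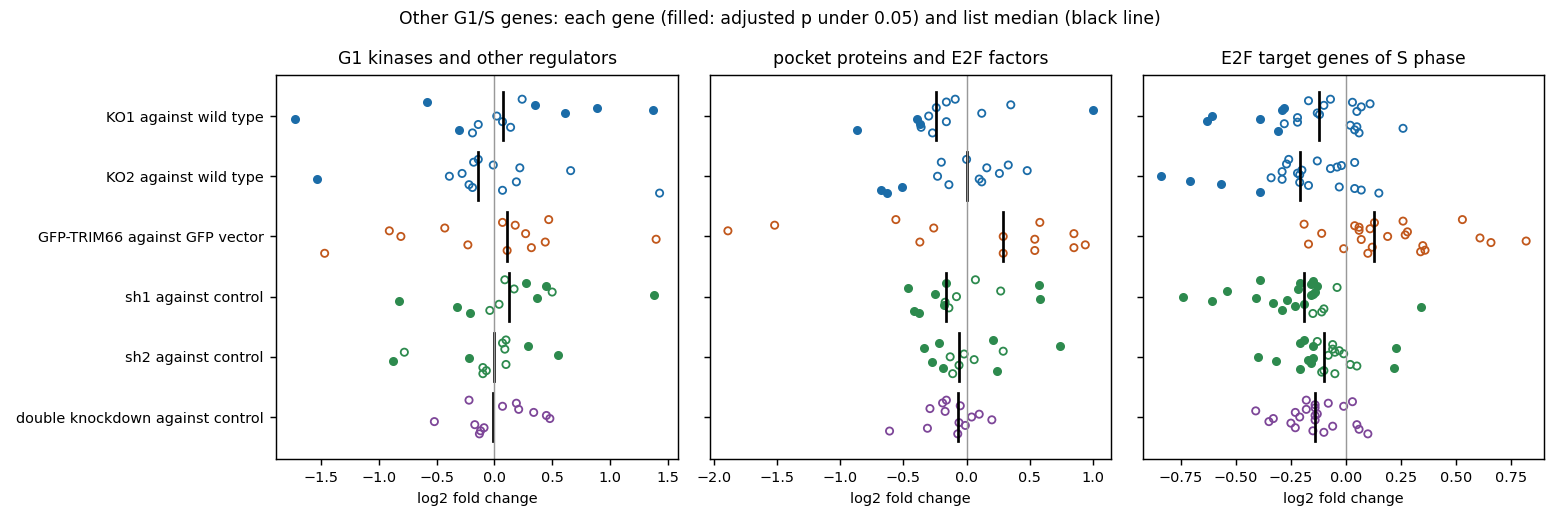
Log2 fold change (horizontal axis) of each tested gene of the 3 lists in the 6 comparisons with a control, filled where the adjusted p is under 0.05, with the list median as a black line. With sh1, 18 of the 23 E2F targets lie below 0 as filled points, and the list median is -0.19.

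Over the 20 libraries, with the mean of each experiment subtracted from log2 CPM, Ccnd2 was most like Mcm3 (Pearson r = 0.954) and Cdc73, of the PAF1 complex (r = 0.953), among 10281 genes compared. Both lie on chromosome 1. Ccnd1 was most like Gpx1, a glutathione peroxidase gene (r = 0.953), Ccnd3 like Colgalt1 (r = 0.941), Ccne1 like Myg1 (r = 0.939) and like Skp2, whose product marks p27 for degradation (r = 0.925), and Ccne2 like Crbn (r = 0.867). Cdkn1b was most like the mitotic cyclin gene Ccnb2 (r = 0.854), Cdkn2a like Angptl6 (r = 0.920) and Cdkn2b like Agpat4 (r = 0.923). Within the 8 genes, Ccnd1 and Ccne1 were the most alike (r = 0.760), followed by Ccnd1 and Ccnd2 (r = 0.648) and by the neighbours Cdkn2a and Cdkn2b (r = 0.617), and the most opposed were Ccnd2 and Cdkn2b (r = -0.700). These values describe libraries that share experiments and replicate differences, so they carry no test.

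Genes next to the members on the chromosome moved with them in some comparisons and not in others. The nearest tested genes around Ccnd2, which lies at 127125162 to 127152188 on chromosome 6 (GRCm38.p6), were Tigar, 15.6 kb below, which encodes a fructose bisphosphatase, and Parp11, 294.6 kb above. Tigar was at -0.10 in KO1 and -0.13 with sh1, without a call, and was called at -0.57 in KO2 (adjusted p = 0.0172) and 0.20 with sh2 (adjusted p = 0.0157). Parp11 was called at -0.64 in KO1 (adjusted p = 0.0143) and at no other of these 4, with -0.10 in KO2. Prmt8, which encodes an arginine methyltransferase 536.8 kb above, fell with Ccnd2 in KO1 (-0.96, adjusted p = 0.00176), in KO2 (-1.05, adjusted p = 0.00273) and with sh1 (-1.86, adjusted p = 2.93e-09), and was at 0.09 with sh2 (adjusted p = 0.722). In contrast, Dyrk4 rose by 3.95 in KO1 (adjusted p = 0.0065) and by 3.36 in KO2 (adjusted p = 0.0392). Tspan9 rose by 1.2 in KO1 (adjusted p = 6.2e-04) and was called at -0.57 with sh2 (adjusted p = 2.44e-05). Kcna6 rose by 3.68 with sh1 (adjusted p = 0.0018). Of the 8 tested genes within 1000 kb of Ccnd2, 2 were higher and 2 lower in KO1, and 1 higher and 2 lower in KO2. With each hairpin 1 was higher and 1 lower. Over all features 31.2% were called in KO1, 11.7% in KO2, 43.4% with sh1 and 25.1% with sh2. The medians of these genes were 0.02 in KO1, 0.00 in KO2, -0.03 with sh1 and 0.10 with sh2. Below Cdkn2a, Mtap, a gene of methionine salvage 93.4 kb away, was at 0.02 in KO1 and rose by 0.25 with sh1 (adjusted p = 0.00137). Of the 6 tested genes within 1000 kb of Cdkn2b, Cdkn2a among them, 3 were higher and 1 lower in KO1, with a median of 0.79, 1 was higher and 0 lower in KO2, with a median of 0.11, 4 were higher and 0 lower with sh1, with a median of 0.35, and 2 were higher and 0 lower with sh2, with a median of 0.09. The highest value among the 6 was 5.1 in KO1, 7.1 in KO2, 8.67 with sh1 and 7.27 with sh2. Each of these is the value of a single gene and does not describe the others. The 6 included Zfp352, a distant gene that was not detected in control libraries and is left out of the plot of fold change against distance. A fold change against such a control is poorly measured, so no rise across the region is read from these highest values. Focad, a focal adhesion gene on the side of Cdkn2a, rose by 0.48 in KO1 (adjusted p = 0.0183), by 0.45 with sh1 (adjusted p = 8.95e-04) and by 0.31 with sh2 (adjusted p = 0.0314), and Klhl9, on the same side, fell by 0.69 in KO1 (adjusted p = 0.00235). Gpr19, a receptor gene 22.2 kb below Cdkn1b, rose by 0.79 in KO1 (adjusted p = 0.00359) and by 0.82 in KO2 (adjusted p = 0.00691), where Cdkn1b was not called, and was at -0.12 with sh1 and 0.14 with sh2, where Cdkn1b fell.

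**Figure D5:**
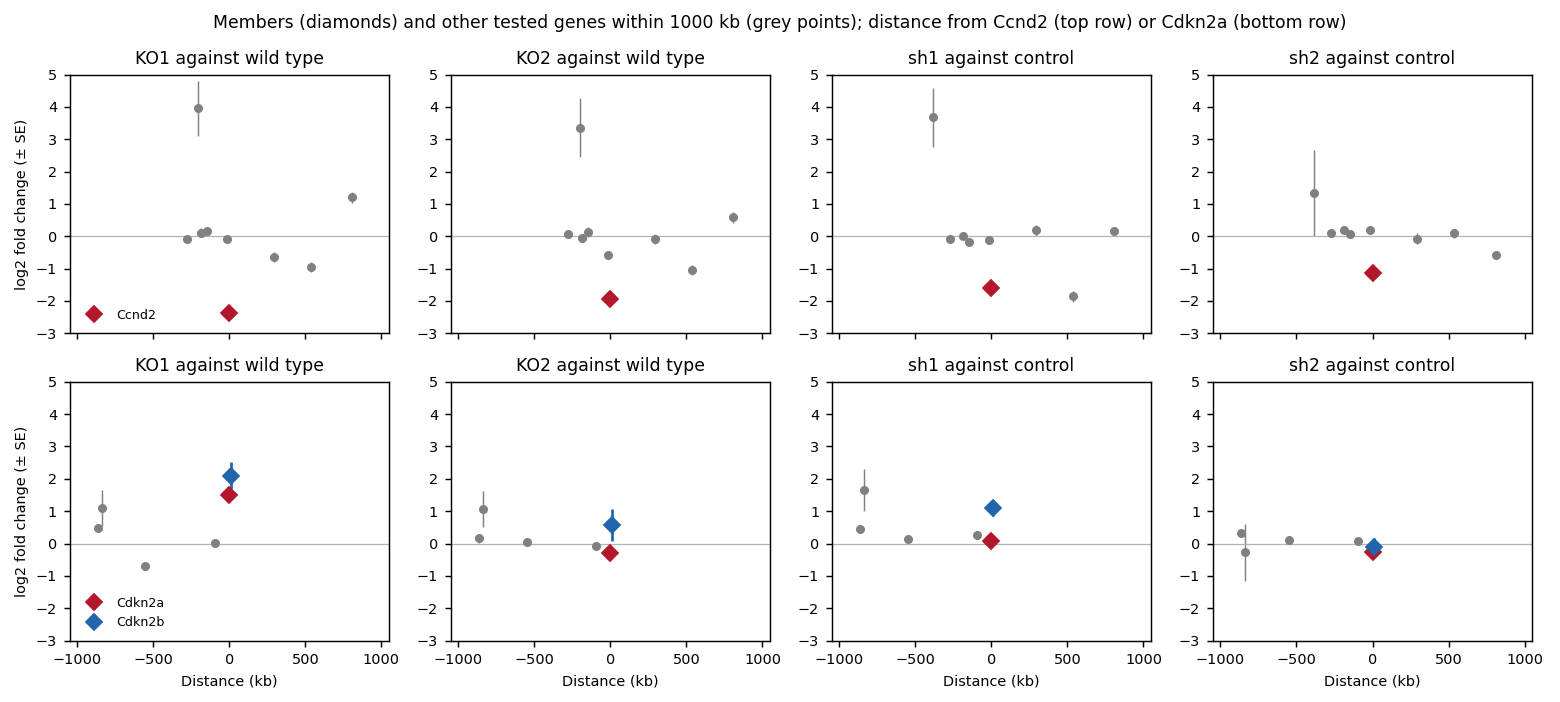
Log2 fold change with its SE (vertical axis) of Ccnd2 (top row) and of Cdkn2a and Cdkn2b (bottom row) as diamonds and of other tested genes within 1000 kb as grey points, against distance in kb, in 4 comparisons. Ccnd2 lies at -2.36 in KO1 beside Tigar at -0.10, and Zfp352, 907.8 kb from Cdkn2b and with 0 counts in control libraries, is left out.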

How the data were processed

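RNA-seq libraries of mouse ES cells were used, 2 in each of 10 groups; 9 ChIP samples were not analysed here. The deposited files hold raw read counts for 24394 genes and 1180 transposable element subfamilies. Per the submitters' processing notes, tools included HISAT2 2.1.0 and Cufflinks 2.2.1 and the build was mm10; no source used here gives the counting tool, annotation or strandedness. Each experiment was fitted alone with edgeR 4.0.16 (R 4.3.3): filterByExpr, TMM, quasi-likelihood F test, Benjamini-Hochberg adjustment over all features, threshold 0.05. The difference between double and single knockdown was tested in a fit of all 20 libraries. SE is the log2 fold change over the root of F, and intervals are 95%. CPM were scaled over all 20 libraries. Alternatives were RLE factors, no filter, genes alone, a replicate block, the compared groups alone, 1 fit of all libraries, DESeq2 1.42.0 and leaving out each library. Leaving out a library leaves 1 in its group, whose spread is then taken from the other groups of the fit. The test was also run on counts simulated from its own fitted spread. Such counts hold no outlying libraries or replicate effects, so that run could not check for those. Positions come from RefSeq on GRCm38.p6, which placed 99.6% of gene names. Promoter stretches were found for 5 of the 8 genes. Named genes of a list are up to 3 per list and comparison, called, by adjusted p; likeness was Pearson r over genes above a mean of 5 CPM. The members and lists were chosen with earlier results of these data known. Totals of 12483949 to 17365296 counts limit precision for low genes, and intervals cover the spread between libraries.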

Additional observations from a re-analysis of the deposited data

Results flagged for a closer look

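Between the lines labelled knockout, 5 of the 8 genes differed in a direct test by edgeR. KO2 was below KO1 by log2 values of -1.79 for Cdkn2a, -1.52 for Cdkn2b, -0.42 for Ccnd1 and -0.41 for Ccne1, and above it by 0.42 for Ccnd2. Of these, the difference of Cdkn2a kept its call under all 13 alternatives run, and each of the others lost it under at least 1. Between the Dax1 hairpins, 5 genes differed. With sh2 the level was above that with sh1 by log2 values of 0.66 for Ccnd3, 0.46 for Ccnd2, 0.23 for Cdkn1b and 0.16 for Ccnd1, and below it by -1.21 for Cdkn2b. All 5 of these hairpin differences lost their call in 1 fit of all 20 libraries, and those of Cdkn1b and Ccnd1 also with DESeq2. Over all features 23.0% differed between the lines and 36.4% between the hairpins.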

How the results depend on the processing

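Over all alternatives, 806 values of the 8 genes kept their side of the threshold without a turn of sign, 53 lost a call, 27 gained one and 26 turned sign. Values set against a main estimate of 0.00 had no sign to turn and were counted among the 806. This held for Ccne1 in the double knockdown, which ran from -0.2 to 0.24. The cause of these changes was not tested. In 1 fit of all 20 libraries the features called were 2667 in KO1, 735 in KO2, 1459 between the lines, 3897 with GFP-TRIM66, 1499 with sh1, 221 with sh2, 755 between hairpins and 304 in the double knockdown, and the members called were 3, 1, 1, 2, 2, 0, 0 and 0 in that order. With DESeq2 the features were 560 with GFP-TRIM66, 4249 with sh1, 2026 with sh2, 3395 between hairpins, 209 in the double knockdown and 176 for the difference of effects, and the members 3 between lines, 1 with GFP-TRIM66 and 3 between hairpins. With no filter 2921 features were called in KO2, 20 with GFP-TRIM66 and 202 for the difference of effects, and with the compared groups alone 1073 in KO2. No label says that replicate numbers pair the libraries. The r of same-numbered deviations was 0.082 for KO1 with KO2, 0.157 for KO1 and 0.48 for KO2 with wild type. It was -0.666 for the GFP vector with GFP-TRIM66 and -0.0238 to 0.149 elsewhere. Same-numbered libraries thus deviated alike in some pairs of groups and not in others. With the replicate block Ccnd3 in KO2 was called (-0.37, adjusted p = 0.0345), as was Cdkn1b between lines (0.35, 0.0489), no other call of a member changed, and 6 features were called in the double knockdown and 8 for the difference of effects. With the numbers crossed, chosen after seeing the data, GFP-TRIM66 had 4115 features and 4 members called.

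Leaving out 1 library gave 2204 to 6665 features and 2 to 6 members in KO1, 604 to 4146 features in KO2, 1030 to 5514 and 1 to 6 between lines, 21 to 755 and 0 to 2 with GFP-TRIM66, 2373 to 3859 features with sh2, 3 to 5 members between hairpins, 6 to 4865 and 0 to 4 in the double knockdown, and 7 to 817 features for the difference of effects.

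Signs turned, in all but 1 case on leaving out 1 library, for values not called with all libraries. They ran from -0.06 to 0.3 for Ccne2 in KO2 (also -0.02), -0.18 to 0.29 for Ccnd3 between lines, -0.63 to 0.23 for Cdkn1b and -1.04 to 0.06 for Cdkn2a with GFP-TRIM66, -0.01 to 0.06 for Ccne1 and -0.18 to 0.31 for Cdkn2a with sh1 (also -0.16), -0.06 to 0.03 for Ccne1 and -0.64 to 0.26 for Cdkn2b with sh2 (also 0.02), and -0.08 to 0.01 for Ccne1 between hairpins. In the double knockdown they ran from -0.24 to 0.08 for Ccnd3, -0.27 to 0.03 for Ccne2 and -0.39 to 0.33 for Cdkn2a, and for the difference of effects from -0.17 to 0.27 for Ccne1, -0.25 to 0.04 for Ccne2, -0.26 to 0.46 for Cdkn2a and -0.08 to 1.57 for Cdkn2b. Ccne1 with sh1 was also at -0.01 in 1 fit of all 20 libraries.

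With 2 libraries a group, small differences and those of Cdkn2b, which had 6 to 223 counts a library, are poorly resolved.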
